A study of Homo sapiens with 6 samples.

Results

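Genes of ferritin iron storage, haem breakdown, iron uptake, iron export and iron regulation were examined in HaCaT cells, an immortalised human keratinocyte line. They were chosen by symbol: FTL, FTH1, NCOA4, HMOX1, HMOX2, BLVRB, TFRC, SLC11A2, SLC40A1 and IREB2, 10 genes in all. Of these, 9 were among the 21961 symbols measured and passed the filter on low counts. SLC40A1, which encodes the iron exporter ferroportin, was not among those symbols and is not analysed here. RNA was sequenced from 3 libraries titled Nvs and 3 titled mod. The design text describes HaCaT cells irradiated with UVB that also received vesicles from beet (Beta vulgaris), set against irradiated cells without them. The sample labels differ from it in part: the Nvs libraries carry a treatment label of control and no mention of vesicles, while mod carries a UV-induced label. The groups are therefore called by their titles, and every fold change is Nvs over mod. Dose and time of radiation or vesicles were not stated in the labels, and all libraries come from 1 cell line. The labels call the libraries of a group replicate biosamples without naming separate cultures, so p-values reflect only library-to-library spread, possibly of technical origin.

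Ferritin is a hollow shell of light (FTL) and heavy (FTH1) chains that holds iron in a harmless form. Haem oxygenase opens the haem ring and frees its iron, and is best known in skin as an enzyme that oxidants and ultraviolet radiation induce. Iron regulatory proteins, among them the product of IREB2, bind hairpins called iron responsive elements when iron is scarce: at the 5′ end of ferritin mRNAs they block translation, and in the 3′ untranslated region of the transferrin receptor mRNA (TFRC) they protect it from decay.

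The hairpins of the ferritin and TFRC mRNAs are shown because they place these genes at opposite ends of that switch. They were read from GENCODE 29 transcripts (GRCh38), 29 bases each, sense strand, 5′ to 3′, with the 6 bases of the loop in capitals. FTL, exonic in the 5′ UTR, chr19:48965335-48965363, plus strand; FTH1, exonic in the 5′ UTR, chr11:61967574-61967602, minus strand; TFRC a to d, exonic in the 3′ UTR, chr3:196050979-196051007, chr3:196050575-196050603, chr3:196050510-196050538 and chr3:196050463-196050491, minus strand.
FTL: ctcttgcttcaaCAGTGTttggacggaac
FTH1: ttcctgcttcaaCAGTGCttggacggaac
TFRC a: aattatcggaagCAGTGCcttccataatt
TFRC b: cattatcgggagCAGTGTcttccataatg
TFRC c: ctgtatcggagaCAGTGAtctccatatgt
TFRC d: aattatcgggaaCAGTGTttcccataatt
The FTL and FTH1 elements were identical at 26 of 29 bases. The 4 TFRC elements that the search found lay within 545 bases. The search asked for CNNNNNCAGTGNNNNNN, sense strand, with 5 pairs between the bases on both sides of the loop and at most 1 of them G with T. Such a match was held by the 5′ UTR within the first 100 bases of the transcript in 10 of 19488 protein-coding genes (0.0513%), and by the 3′ UTR within the last 3000 bases in 62 (0.318%). Among the 10 genes, SLC40A1 also held 1 in its 5′ UTR, 211 bases from the transcript start and so outside that window. A match is a description of letters, and no match says only that these letters are not in the transcripts searched.

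Total counts ranged from 41120058 to 44080808 in Nvs libraries and from 45637046 to 51369628 in mod libraries. Counts outside the mitochondrial genome were 19191818 to 21104699 in Nvs and 31306908 to 35831454 in mod, because mitochondrial transcripts took 52.6% ± 0.751 of counts in Nvs and 30.5% ± 0.817 in mod (SD, n = 3). Levels below are CPM, counts divided by a library size that TMM adjusts so that most genes show little change. By library total the median gene stood at -0.77 (log2), so each rise or fall is relative to the typical gene, and values by library total are given where they differ in direction. The part that the mitochondrial share has in any result was not tested. In bulk RNA, fewer cells of a type and less RNA per cell cannot be told apart. Of 9 keratinocyte markers, 9 were detected, with KRT5, KRT14 and TP63 each at 9732 counts or more in every library. The 9 summed to 26336 to 28696 CPM in Nvs and 19755 to 21591 CPM in mod, but did not move together. Raw counts of KRT17 were 15833 to 18820 in Nvs and 4050 to 4801 in mod. Those of KRT5 were 218161 to 241584 in Nvs and 419410 to 510146 in mod. Erythroid markers, which could carry haem genes of their own, summed to at most 0.469 CPM in Nvs and 0.352 CPM in mod over 6 of 10 listed genes found. Melanocyte markers summed to 3.85 to 6.08 CPM in Nvs and 4.40 to 5.59 CPM in mod (5 of 7 found), and markers of leukocytes and endothelium to 2.21 to 3.98 CPM and 3.65 to 4.01 CPM (7 of 8). Fibroblast markers summed to 42.8 to 46.1 CPM in Nvs and 60.2 to 67.8 CPM in mod (5 of 6), nearly all of it from FBLN1, while COL3A1 had 0 reads in Nvs and at most 1 per library in mod.

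In brief, the ferritin chains and HMOX1 were higher in Nvs and TFRC, SLC11A2 and IREB2 lower, under TMM and by library total alike, while NCOA4 and BLVRB were called higher under TMM alone of these scalings. The edgeR quasi-likelihood test called 8 of the 9 genes, where 43.3% of all tested genes were called. The genes were chosen with earlier results of these data known, so a share above that of all genes is not evidence. It called 5 of the 9 genes higher in Nvs (FTL, FTH1, NCOA4, HMOX1 and BLVRB), where 22.8% of the 14617 tested genes were called higher. It called 3 lower (TFRC, SLC11A2 and IREB2), where 20.5% of tested genes were called lower. For 8 of the 9 genes the libraries of both groups did not overlap, as for 53.6% of tested genes. By library total, 3 of the 5 (FTL, FTH1 and HMOX1) were still called higher, against 4.04% of tested genes, and 4 were called lower (TFRC, SLC11A2, IREB2 and NCOA4), against 68.0%.

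**Figure D1:**
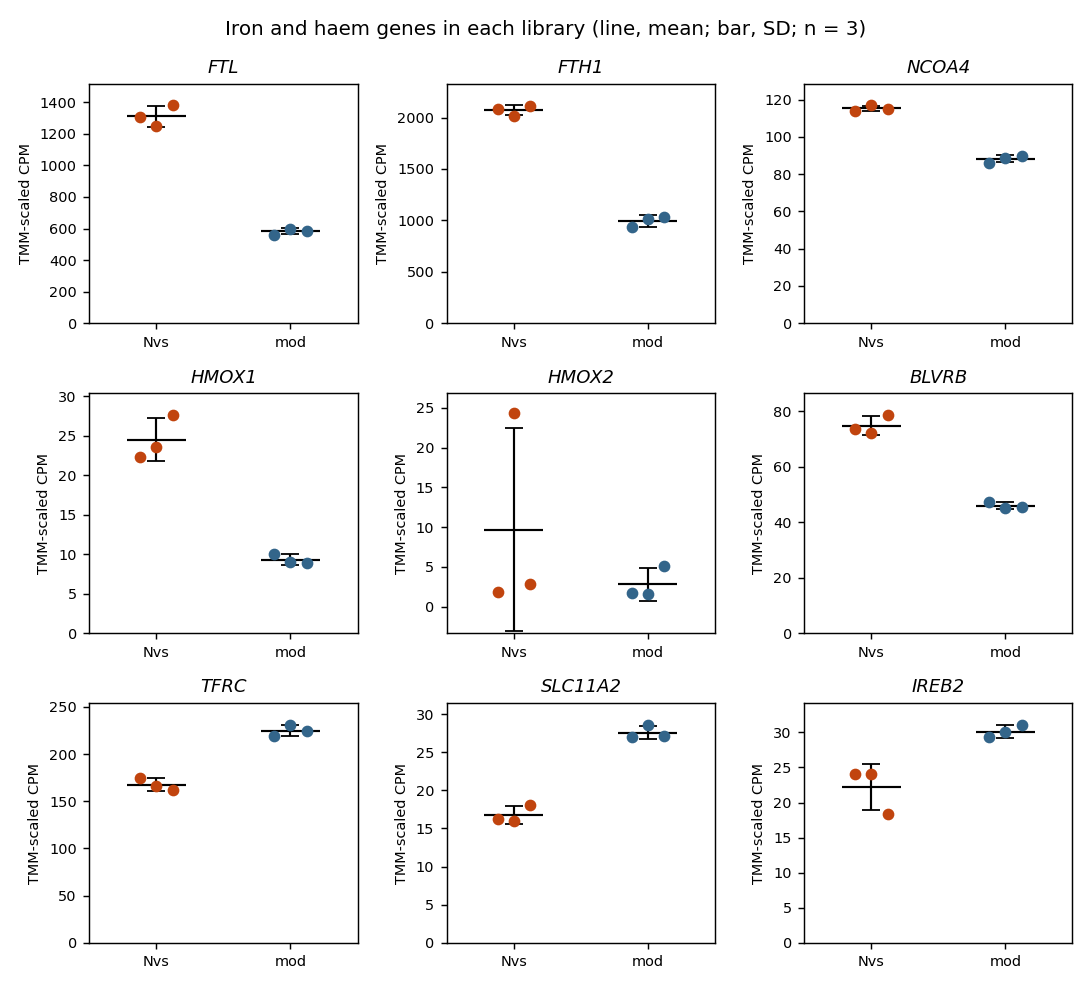
TMM-scaled CPM (vertical axis, starting at 0 except for HMOX2, where the SD bar reaches below 0) of 9 iron and haem genes in each Nvs and mod library; points are libraries, lines the mean of 3 and bars the SD. The groups stand apart in every gene shown except HMOX2, with FTL at 1249 to 1380 CPM in Nvs and 561 to 598 CPM in mod.

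The ferritin light chain FTL (chr19:48965301-48966878), the subunit that favours the mineral core, had 44584, 39542 and 46099 counts in the Nvs libraries, against 37399, 39030 and 34363 in the mod libraries. After scaling it was at 1307, 1249 and 1380 CPM in Nvs, and at 561, 598 and 586 CPM in mod. Every Nvs library lay above every mod library, also in raw counts, although the Nvs libraries were shallower. The log2 fold change was 1.17 ± 0.05 (SE, adjusted p = 2.69e-09), higher than that of 95.0% of tested genes. It was 0.41 by library total (adjusted p = 6.33e-06), 0.63 after removal of the trend with transcript length and 0.69 after removal of the trend with genomic span, and was called under each. Transcript length here and below is that implied by the authors' counts and FPKM, and was not checked against the transcripts.

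The heavy chain FTH1 (chr11:61959718-61967660), which carries the ferroxidase activity that loads iron, had 2086, 2016 and 2107 CPM in Nvs, against 931, 1017 and 1036 CPM in mod. On this scale the Nvs libraries were all above the mod libraries. Raw counts overlapped, at 63856 to 71160 in Nvs and 60802 to 66375 in mod. The log2 fold change was 1.06 ± 0.05 (adjusted p = 7.00e-09). It was 0.30 by library total, 0.72 with the transcript length trend removed and 0.70 with the span trend removed, and was called in each case. FTL and FTH1 together made up 0.549% ± 0.00858 of the counts outside the mitochondrial genome in Nvs and 0.295% ± 0.0152 in mod (SD, n = 3).

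Ferritin has many processed pseudogene copies that can share its reads. The 16 rows named FTH1P held 0.612% to 0.807% of the FTH1 count in Nvs and 0.592% to 0.640% in mod. The 6 rows named FTLP held 0.206% to 0.268% of the FTL count in Nvs and 0.433% to 0.533% in mod. Summing these rows with their parent genes left the log2 fold changes at 1.17 and 1.06. FTH1 also overlaps BEST1 on the opposite strand, which had 26 to 49 counts in Nvs and 34 to 51 in mod.

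NCOA4 (chr10:46005088-46030714), the receptor that takes ferritin to the lysosome so that its iron is released, had 114, 117 and 115 CPM in Nvs, against 86.1, 88.5 and 90.0 CPM in mod. The groups did not overlap, and the log2 fold change was 0.39 ± 0.05 (adjusted p = 3.72e-05). By library total it was -0.37 (adjusted p = 1.34e-05), so its direction depends on how libraries are scaled. With libraries scaled by the total outside the mitochondrial genome it was 0.18 (adjusted p = 0.0113).

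HMOX1 (chr22:35380361-35394214), the inducible haem oxygenase, had 760, 748 and 921 counts in Nvs, against 670, 585 and 518 in mod. On the CPM scale these were 22.3, 23.6 and 27.6 in Nvs, and 10.1, 8.96 and 8.83 in mod. Each Nvs library was above each mod library on both scales. The log2 fold change was 1.40 ± 0.12 (adjusted p = 4.95e-07), higher than that of 96.8% of tested genes and the highest of the 8 called genes under TMM. It was 0.64 by library total (adjusted p = 0.000204) and 1.12 and 1.23 with the trends with transcript length and span removed.

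HMOX2 (chr16:4474690-4510347), the haem oxygenase made without induction, gave uneven counts. They were 63, 772 and 97 in Nvs, against 113, 104 and 303 in mod, or 1.85, 24.4 and 2.90 CPM in Nvs and 1.70, 1.59 and 5.17 CPM in mod. Nvs replicate 2 stood far above all other libraries, and the groups overlapped. The fitted log2 fold change was 1.79 ± 0.75 (adjusted p = 0.0692, not called), and without Nvs replicate 2 it was -0.24 (adjusted p = 0.709). Without mod replicate 3 it was 2.55 (adjusted p = 0.0232), without Nvs replicate 1 it was 2.28 (adjusted p = 0.0215) and without Nvs replicate 3 it was 2.22 (adjusted p = 0.0306). The gene overlaps NMRAL1 on the opposite strand, whose counts were also uneven, at 105, 564 and 398 in Nvs and 655, 274 and 1016 in mod. Whether reads were assigned by strand is not stated, so the level of HMOX2 is uncertain.

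BLVRB (chr19:40447765-40465840), biliverdin reductase B, which also acts on flavins, had 73.4, 72.2 and 78.5 CPM in Nvs, against 47.3, 45.0 and 45.3 CPM in mod. The groups did not overlap, with a log2 fold change of 0.70 ± 0.06 (adjusted p = 7.83e-07). By library total it was -0.056 (adjusted p = 0.432), and the deposited FPKM, also set by all reads, were 35.1, 34.4 and 37.0 in Nvs and 37.9, 36.7 and 36.0 in mod. Its change was 0.30 with the transcript length trend removed (adjusted p = 0.000884).

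TFRC (chr3:196027183-196082189), the receptor that brings transferrin-bound iron into the cell and in which the search found 4 elements, moved the other way from ferritin. It had 175, 166 and 162 CPM in Nvs, against 219, 231 and 225 CPM in mod. All Nvs libraries were below all mod libraries, and the log2 fold change was -0.42 ± 0.05 (adjusted p = 1.90e-05). By library total it was -1.18. Removal of the trend with the implied transcript length left -0.18 (adjusted p = 0.00891), and removal of the span trend -0.39.

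SLC11A2 (chr12:50979401-51028566), the divalent metal transporter DMT1 that moves iron across the endosomal membrane, had 16.2, 15.9 and 18.1 CPM in Nvs, against 27.0, 28.6 and 27.1 CPM in mod. The groups did not overlap, with a log2 fold change of -0.72 ± 0.09 (adjusted p = 3.33e-05), lower than that of TFRC. The value by library total was -1.48, and it was -0.55 and -0.54 with the trends with transcript length and span removed, called in each case.

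IREB2 (chr15:78437431-78501456), which encodes iron regulatory protein 2, had 24.1, 24.1 and 18.4 CPM in Nvs, against 29.3, 30.04 and 31.0 CPM in mod. Nvs replicate 3 was the lowest library, and the groups did not overlap. The log2 fold change was -0.44 ± 0.11 (adjusted p = 0.00449) and -1.20 by library total. The call was lost when the transcript length trend was removed (-0.26, adjusted p = 0.0584), and held with the span trend removed (-0.30, adjusted p = 0.0350).

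**Figure D2:**
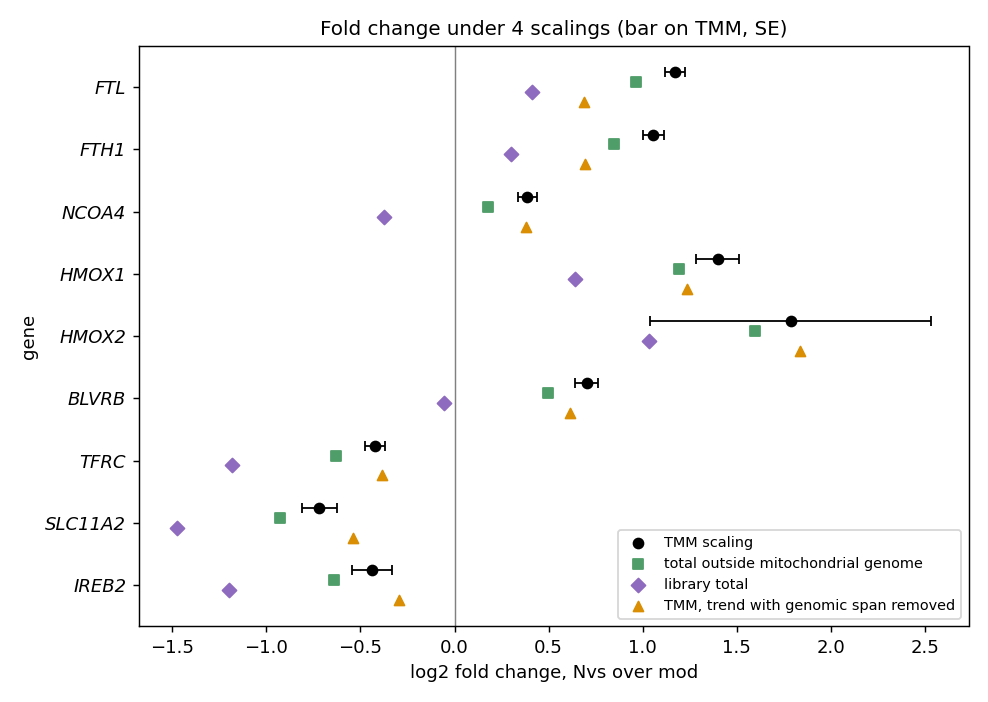
Log2 fold change (Nvs over mod, horizontal axis) of each gene under TMM scaling with its SE, under 2 other scalings and with the trend with genomic span removed. FTL, FTH1 and HMOX1 lie above 0 and TFRC, SLC11A2 and IREB2 below 0 under all 4, whereas NCOA4 and BLVRB fall to -0.37 and -0.056 by library total.

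Ratios of 2 genes within a library do not depend on how libraries are scaled. Of 8 ratios compared, 6 had no overlap between groups, each with an exact permutation p of 0.1 (two-sided), the smallest that 3 against 3 libraries allow, and 0.133 after Benjamini-Hochberg adjustment over the 8. Per TFRC read there were 11.9, 12.1 and 13.0 FTH1 reads in Nvs, against 4.25, 4.41 and 4.61 in mod. The ratio was 2.79-fold higher in Nvs. Per TFRC read there were 7.48, 7.51 and 8.52 FTL reads in Nvs, against 2.56, 2.59 and 2.61 in mod, a 3.02-fold higher ratio. Storage and uptake mRNAs thus stood in another proportion in every Nvs library than in any mod library. These ratios are of raw counts and were not adjusted for the trend with transcript length. With that trend removed, the log2 fold changes were 0.63 for FTL, 0.72 for FTH1 and -0.18 for TFRC. Under TMM alone they were 1.17, 1.06 and -0.42.

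IREB2 relative to FTH1 was lower, with a log2 count ratio of -6.55 ± 0.25 in Nvs and -5.04 ± 0.05 in mod (SD, n = 3). NCOA4 relative to FTH1, the receptor for ferritin turnover against its cargo, had a ratio of 0.0557 ± 0.00194 in Nvs and 0.0888 ± 0.00321 in mod. NCOA4 was therefore lower relative to ferritin in all 3 Nvs libraries, whichever scaling is used. HMOX1 relative to BLVRB was at 0.304, 0.327 and 0.351 in Nvs, against 0.213, 0.199 and 0.195 in mod.

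The ratio of light to heavy ferritin chains differed little. There were 0.627, 0.619 and 0.655 FTL reads per FTH1 read in Nvs, against 0.603, 0.588 and 0.565 in mod, a 1.08-fold higher ratio. With the transcript length trend removed, the log2 fold change of FTL (0.63) was below that of FTH1 (0.72). With the span trend removed they were 0.69 and 0.70, so the direction of this small difference depends on the processing. HMOX1 relative to FTH1 overlapped between groups, at 0.0107, 0.0117 and 0.0131 in Nvs and 0.0108, 0.00881 and 0.00852 in mod (exact permutation p = 0.2, adjusted 0.229). HMOX1 relative to HMOX2 ranged from 0.969 to 12.1 in Nvs and from 1.71 to 5.93 in mod (exact permutation p = 0.8), which follows the uneven HMOX2 counts.

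**Figure D3:**
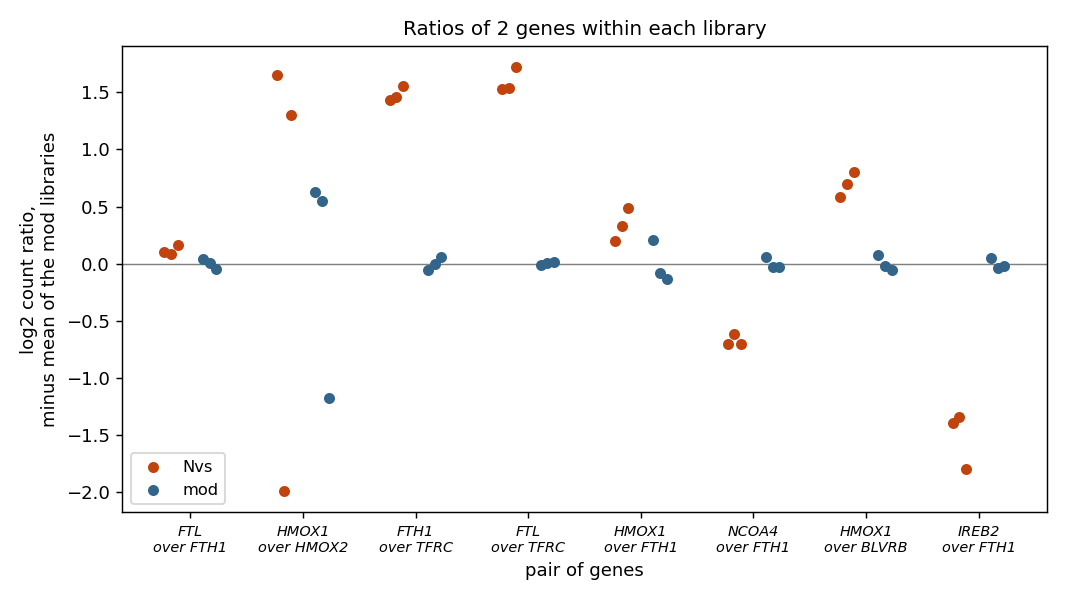
Log2 ratio of the counts of 2 genes in each library, minus the mean of the mod libraries for that pair (vertical axis), for 8 pairs of genes (horizontal axis); points are the 3 libraries of each group. FTH1 and FTL relative to TFRC are higher in all Nvs libraries (by 1.48 and 1.60 on average), and HMOX1 relative to HMOX2 scatters in both groups.

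In the FPKM values of the authors, the ferritin chains were by far the most abundant of these mRNAs. The order given here rests on the length by which each gene was divided, which was not checked against the transcripts. FTL led with 1100 to 1204 FPKM in Nvs and 832 to 902 FPKM in mod. FTH1 followed with 772 to 803 FPKM in Nvs and 600 to 667 FPKM in mod, without overlap between the chains in either group. In raw counts the chains stood the other way, with FTH1 at 63856 to 71160 and FTL at 39542 to 46099 in Nvs. In mod they were at 60802 to 66375 and 34363 to 39030. BLVRB (34.4 to 37.0 FPKM in Nvs, 36.0 to 37.9 in mod) and NCOA4 (21.9 to 22.5 in Nvs, 27.9 to 29.2 in mod) came next. HMOX1 and TFRC followed. In Nvs their FPKM ranges overlapped, at 7.45 to 9.08 for HMOX1 and 7.08 to 7.76 for TFRC. In mod HMOX1 was below TFRC, at 4.90 to 5.63 FPKM against 16.3 to 17.5 FPKM. In raw counts TFRC was above HMOX1 in every library, at 5264 to 5962 against 748 to 921 in Nvs. In mod the counts were 13175 to 15061 against 518 to 670. HMOX2 ranged from 0.422 to 5.54 FPKM in Nvs and was at 0.648, 0.620 and 1.957 FPKM in mod. SLC11A2 and IREB2 were otherwise lowest and did not differ beyond their spread, at 1.24 to 1.39 and 1.29 to 1.72 FPKM in Nvs and at 3.50 to 3.80 and 3.50 to 3.68 FPKM in mod.

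Likeness of pattern was measured as the root mean square difference between log2 CPM profiles over the 6 libraries, each centred on its own mean, among 9055 protein-coding genes with a mean of at least 5 CPM. The genes nearest to FTL were the ribosomal protein genes RPL32 (0.0257), RPL10A (0.0330) and RPS14 (0.0364). Nearest to HMOX1 were ISG15 (0.0397), IGFL1 (0.0518) and BBLN (0.0569), and nearest to TFRC were HDAC1 (0.0126), GGA2 (0.0173) and HACD2 (0.0173).

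Among 86 other tested genes of iron and haem metabolism, 31 were called higher and 13 lower in Nvs. Of all tested genes, 22.8% were called higher and 20.5% lower. The median log2 fold change of the 86 was 0.11, against -0.01 over all tested genes. By library total the counts were 5 and 65 and the median -0.65, against -0.77 over all tested genes. With that scaling, 4.04% of all tested genes were called higher and 68.0% lower. The same shares are the background for the counts of each list below.

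Of 10 tested genes of iron uptake and release, 5 were lower and 1 higher (median -0.35). By library total 7 were lower and 0 higher (median -1.11). CD44, a hyaluronan receptor also implicated in iron uptake, was at 396 ± 5.37 CPM in Nvs and 603 ± 20.5 CPM in mod (-0.61 ± 0.05, adjusted p = 3.97e-07). STEAP3, the endosomal ferrireductase that acts between TFRC and SLC11A2, was at 51.7 ± 0.778 CPM in Nvs and 69.2 ± 0.942 CPM in mod (-0.42 ± 0.06, adjusted p = 4.58e-05). Also lower were the metal importers SLC39A14 (-0.50) and SLC39A8 (-0.85) and LRP1 (-0.40), an endocytic receptor that clears haem bound to hemopexin. LRP1 was not called once the transcript length trend was removed (-0.15, adjusted p = 0.0920). The gene called higher was SLC22A17, a receptor for lipocalin 2, at 4.42 ± 1.11 CPM in Nvs and 2.62 ± 0.265 CPM in mod (0.75 ± 0.24, adjusted p = 0.0197). It stood at -0.01 by library total, and its adjusted p was 0.0874 without Nvs replicate 1, 0.0858 without mod replicate 1 and 0.0524 without mod replicate 3.

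Of 10 tested iron regulation genes, 3 were higher and 2 lower (median -0.05). By library total 1 was higher and 9 lower (median -0.81). ZFP36, an mRNA decay factor that also acts on TFRC mRNA, was at 64.7 ± 0.785 CPM in Nvs and 26.9 ± 1.76 CPM in mod (1.27 ± 0.07, adjusted p = 1.06e-08; 0.51 by library total). NFE2L2, which encodes the oxidative stress factor NRF2, was higher by 0.25 ± 0.06 and BACH1, the haem-sensing repressor of HMOX1, by 0.37 ± 0.10, but both were negative by library total (-0.51 and -0.38). BACH1 had adjusted p-values of 0.0556 without mod replicate 1 and 0.0513 without mod replicate 2. CUL1, a scaffold of ubiquitin ligases, was lower (-0.26 ± 0.07), though at -0.04 with the span trend removed. ACO1, which encodes iron regulatory protein 1, was at 10.5 ± 0.890 CPM in Nvs and 13.0 ± 0.626 CPM in mod (-0.31 ± 0.12, adjusted p = 0.0482). Its adjusted p was 0.0582 without Nvs replicate 1, 0.131 without Nvs replicate 3, 0.0780 without mod replicate 1, 0.0934 without mod replicate 2 and 0.169 without mod replicate 3. FBXL5, the iron-sensing adaptor that marks IREB2 protein for degradation, was not called (0.04 ± 0.11, and -0.72 by library total).

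Of 11 tested haem synthesis genes, 4 were higher and 0 lower (median 0.19). By library total 1 was higher and 9 lower (median -0.57). UROD, uroporphyrinogen decarboxylase, was at 54.4 ± 4.55 CPM in Nvs and 34.9 ± 3.77 CPM in mod (0.64 ± 0.09), and TSPO, an outer mitochondrial membrane protein that binds porphyrins, rose by 0.57 ± 0.06. ALAS1, the rate-limiting enzyme outside the erythroid lineage, rose by 0.20 ± 0.07 (adjusted p = 0.0254). UROD, TSPO and ALAS1 were at -0.12, -0.19 and -0.56 by library total. TSPO had 0.13 with the transcript length trend removed (adjusted p = 0.0586). ALAS1 lost its call without Nvs replicate 2 (adjusted p = 0.101) or without mod replicate 1, 2 or 3 (0.107, 0.0548 and 0.115), and was at -0.04 with that trend removed. TMEM14C, a porphyrin transporter, was the fourth, with 79, 525 and 86 counts in Nvs and 89, 123 and 63 in mod. Without Nvs replicate 2 its log2 fold change was 0.77 in place of 2.32, and it was not called (adjusted p = 0.0752).

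Of 9 tested genes of haem transport and breakdown, 0 were higher and 2 lower (median -0.19). By library total 0 were higher and 9 lower (median -0.95). They were PGRMC1, a haem-binding membrane protein (-0.43 ± 0.06), and FLVCR1, described as a haem exporter, at 14.9 ± 3.09 CPM in Nvs and 22.03 ± 0.316 CPM in mod (-0.56 ± 0.13). BLVRA, the main biliverdin reductase of adult tissue, was at 50.7 ± 0.716 CPM in Nvs and 46.8 ± 2.73 CPM in mod and was not called (0.12 ± 0.07, adjusted p = 0.179, and -0.64 by library total).

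Calls among genes that build iron-sulfur clusters depended on the scaling. Of 9 tested cytosolic assembly genes, 7 were higher and 1, MMS19, lower under TMM (median 0.47). By library total 1 was higher and 5 lower (median -0.29), and with the transcript length trend removed 4 were higher and 1 lower. CIAO2B was at 58.7 ± 8.99 CPM in Nvs and 27.0 ± 1.53 CPM in mod (1.12 ± 0.10, 0.36 by library total), and CIAO3 rose by 0.60 ± 0.08 (-0.16 by library total). Of 18 tested genes of mitochondrial iron import and cluster assembly, 9 were higher and 1, the transporter gene ABCB8, lower (median 0.40). By library total 0 were higher and 12 lower (median -0.36), and with the transcript length trend removed 6 were higher and 1 lower. ISCU, the scaffold on which clusters form, rose by 0.53 ± 0.07 and FDXR, ferredoxin reductase, by 0.67 ± 0.06, with -0.23 and -0.08 by library total. SLC25A37 and SLC25A28, the mitoferrins that carry iron into mitochondria, were not called (-0.20 ± 0.16 and -0.02 ± 0.06).

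Of 6 tested iron chaperones and ferritin partners, 3 were higher and 0 lower (median 0.35). By library total 1, BOLA2B, was higher and 4 lower (median -0.41). TAX1BP1, an autophagy receptor that works with NCOA4 in ferritin delivery, rose by 0.39 ± 0.06 and GLRX3 by 0.31 ± 0.07, with -0.37 and -0.45 by library total. The third was BOLA2B, taken for BOLA2 by an older symbol and nearly identical to a neighbouring copy. It had 15, 1133 and 7 counts in Nvs and 76, 22 and 4 in mod, and its log2 fold change of 4.52 became -0.67 without Nvs replicate 2 (adjusted p = 0.607). Without mod replicate 2 it was 4.28 with an adjusted p of 0.0667. Among other transcripts described with an iron responsive element, CDC42BPA was lower (-0.93 ± 0.13), and EPAS1 and CDC14A were not called.

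Of 10 tested iron-linked ferroptosis genes, 4 were higher and 1 lower (median 0.13). By library total 1 was higher and 8 lower (median -0.63). GPX4, which removes lipid peroxides, was at 533 ± 41.4 CPM in Nvs and 247 ± 5.84 CPM in mod (1.11 ± 0.06, 0.35 by library total), and VDAC2 rose by 0.36 ± 0.06 (-0.40 by library total). SLC7A11, the cystine importer, was lower (-0.35 ± 0.11, adjusted p = 0.0213). Its adjusted p was 0.0577 without Nvs replicate 2, 0.0697 without mod replicate 2, 0.0878 without mod replicate 3 and 0.207 with the transcript length trend removed.

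**Figure D4:**
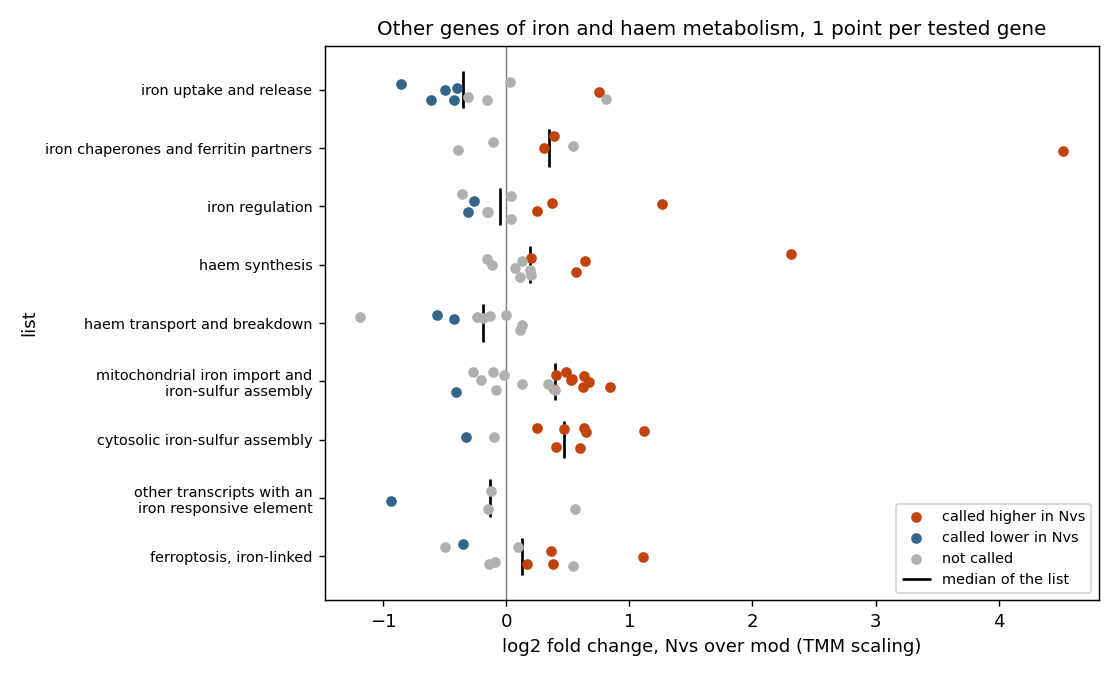
Log2 fold change (Nvs over mod, TMM scaling, horizontal axis) of each tested gene in 9 lists of iron and haem metabolism (vertical axis), coloured by the edgeR call, with the median of each list as a line. Cytosolic iron-sulfur assembly has the highest median (0.47) and iron uptake and release the lowest (-0.35); the points beyond 2 are BOLA2B and TMEM14C, whose counts are uneven.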

How the data were processed

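Gene counts were deposited by the authors as 1 table of raw counts per gene symbol, and FPKM values for the same symbols were deposited as a second table, scaled by transcript length and library total. Per the labels' protocols, poly(A) RNA was made into strand-specific dUTP libraries and read as pairs of 150 bp. The genome build is hg38, per the submitters' processing notes; no aligner, counter or strand setting is stated in them. The counts went through edgeR 4.0.16 (R 4.3.3): filterByExpr (minimum count 10, minimum total 15), TMM, and the quasi-likelihood test of Nvs against mod over 14617 genes. P-values were adjusted by Benjamini-Hochberg over all of them, and genes were called at an adjusted p under 0.05. Each SE was derived from the fold change and its F statistic. The script was tested on simulated data: it recovered changes of abundant genes better than changes of all genes, and the share of false calls was above the nominal level. Alternatives used DESeq2 1.42.0, limma 3.58.1 on log2(FPKM + 1) and log2(FPKM + 0.1), other scalings and filters, and offsets for the trend of log2 CPM with transcript length (count over FPKM) or with genomic span in a RefSeq table. The last was chosen after seeing the data. The length implied by count over FPKM was not checked against the GENCODE transcripts. Sequences and gene coordinates came from GENCODE 29. The 10 genes and the lists were chosen with earlier results of these data known. All 10 genes were named, and of each list the 2 called genes with the smallest adjusted p in each direction, plus those singled out by a count of 5 or fewer; list genes outside that rule (SLC39A14, SLC39A8, LRP1, BACH1, FBXL5, ALAS1, TMEM14C, BLVRA, BOLA2B, the mitoferrins, uncalled genes with an iron responsive element, PCBP1, PCBP2 and SKP1) were named after their values were seen.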

Additional observations from a re-analysis of the deposited data

How the results depend on the processing

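FTL, FTH1, HMOX1, TFRC and SLC11A2 kept their direction and their call under all alternatives run. Scaled by library total, the test called 591 genes higher and 9937 lower, 3 of the 9 iron and haem genes higher, and 5 of the list genes higher and 65 lower. Scaled by the total outside the mitochondrial genome, it called 2130 genes higher and 5026 lower, and 18 list genes higher and 34 lower. The FPKM values in limma called 3 of the 9 genes higher and 4 lower, NCOA4 among the lower, with a pseudocount of 1 or 0.1 and with a minimum mean FPKM of 1. With a pseudocount of 1, 556 of all 21961 genes were then higher and 9894 lower. BLVRB reversed to -0.056 by library total and to -0.053 and -0.055 with the pseudocounts, and NCOA4 to -0.37, -0.36 and -0.37; both scalings divide by all counts, mitochondrial ones included. IREB2 was no longer called at -0.26 with the transcript length trend removed; the cause was not tested. HMOX2 became called at 1.76 without a count filter (adjusted p = 6.58e-17) and ranged from -0.24 to 2.55 when 1 library was left out. Over the same libraries left out, genes called ranged from 2745 to 3317 higher and from 2414 to 3075 lower, and iron and haem genes from 5 to 6 higher, with 3 lower each time; list genes ranged from 25 to 28 higher and from 11 to 16 lower. The log2 difference in FTL over TFRC ranged from 1.53 to 1.63 and that in HMOX1 over HMOX2 from -0.34 to 1.48. Replicate numbers did not pair the samples: same-numbered libraries had correlations of -0.0178, -0.0077 and -0.023 in their deviations from the group means. The fit with the number as a block called 3115 genes higher and 2835 lower and changed no call among the 9 genes. HMOX2 had uneven counts, from 63 to 772 in Nvs and from 104 to 303 in mod; the cause was not tested.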

Other observations

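PCBP1 and PCBP2, which encode chaperones that deliver iron to ferritin, had very unequal counts: PCBP1 had 129, 124 and 120 in Nvs and 177, 174 and 142 in mod, while PCBP2 had 3161, 3097 and 3032 in Nvs and 6568, 6634 and 6043 in mod. Neither was called (PCBP1 0.54 ± 0.21, adjusted p = 0.0523, and -0.22 by library total; PCBP2 -0.11 ± 0.05, adjusted p = 0.124). SKP1, a subunit of the ubiquitin ligase that removes iron regulatory proteins, had 148 to 176 counts in Nvs and 293 to 340 in mod. It was not called (0.04 ± 0.17, and -0.72 by library total). No counter is stated, so the levels of PCBP1 and SKP1 are uncertain, and whether the counting bears on them was not tested. Nvs replicate 2 held the outlying count for HMOX2, BOLA2B and TMEM14C alike, at 772, 1133 and 525.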
